A study of Mus musculus with 12 samples.

Results

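The livers compared here came from *Pctp*-/- and wild-type (WT) mice that had all eaten a methionine and choline-deficient (MCD) diet. Of the 12 liver libraries in the series, 6 belonged to this comparison, 3 from *Pctp*-/- mice and 3 from WT mice, and they were picked by the genotype and diet in the submitters' labels. The other 6 libraries came from the same 2 genotypes on chow. They entered the filter on mean level, the estimate of the spread, the knockout effect on chow and the test of whether the knockout effect differed between diets. Each library was made from whole liver and is labelled as a biological replicate. The deletion was present in every cell of the body, so an effect of losing the protein in hepatocytes and one of losing it elsewhere cannot be told apart. The study's methods describe male mice, while the age, the genetic background and the time on the diet of these mice are not given in the sources used here. Replicates 1, 2 and 3 of each genotype are different mice, and values are given below in that order.

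Phosphatidylcholine transfer protein (PC-TP), the product of *Pctp*, is a cytosolic protein that binds and carries phosphatidylcholine in its START domain. Methionine and choline are both needed to make phosphatidylcholine, and rodents deprived of them retain fat in the liver and develop liver injury and inflammation. Hepatocytes make up most of liver RNA, and their detoxification enzymes are controlled by nuclear receptors such as CAR and PXR, by the antioxidant regulator NRF2, by the amino acid stress regulator ATF4, and by the sex-dependent pattern of growth hormone.

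Levels are in FPKM, a measure of the fragments of a gene that allows for transcript length and sequencing depth. The MCD libraries held 43123418 to 46246856 uniquely mapped reads in WT and 33463498 to 43577742 in *Pctp*-/- mice. The hepatocyte genes albumin (*Alb*), *Apoa1*, *Ttr* and *Hnf4a* were high in each of the 6 libraries, and *Alb* read 43960.0, 41402 and 46335 FPKM in WT and 61588, 54602 and 55465 FPKM in *Pctp*-/- livers. Skeletal muscle genes separated the WT libraries from each other. Muscle actin *Acta1* read 12.4, 12.1 and 0 FPKM in WT and 0.0742, 0 and 0 FPKM in *Pctp*-/- livers, and muscle creatine kinase *Ckm* read 3.89, 4.08 and 0 FPKM in WT and 0.113, 0 and 0 FPKM in *Pctp*-/- livers. The fast myosin *Myh4* stood at 3.47, 3.33 and 0 FPKM in WT and at 0 in each *Pctp*-/- library. WT replicates 1 and 2 thus held muscle RNA that WT replicate 3 and the knockout livers lacked or nearly lacked, and none of these muscle genes passed the test. Without WT replicate 3, 3 genes of the list of other tissues and blood passed, against 0 with it. Of the 23 genes in that list, 10 were at 0 in all 6 libraries, the pancreatic genes *Prss1*, *Prss2* and *Pnlip* among them, and the part of muscle RNA in the results was not tested.

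*Pctp* itself occupies positions 89982665 to 90002894 of chromosome 11 (GRCm38, minus strand). It read 7.90, 5.10 and 3.61 FPKM in WT and 0.156, 0.329 and 0.293 FPKM in *Pctp*-/- livers. Every knockout value was below every WT value (log2 fold change -2.33 ± 0.23, adjusted p = 0.000624). A fold change, here and below, is a difference of group means of log2(FPKM + 1) with its standard error, and it understates the change of genes with few FPKM. Each p-value is from limma, which was fitted to all tested genes, and is adjusted over them unless said otherwise. The call of *Pctp* held whichever of the 6 MCD libraries was left out. In WT livers *Pctp* was a gene of modest abundance, at rank 6582 of the 12466 genes tested.

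Genes near *Pctp* were called more often than genes elsewhere. Within 20 Mb of *Pctp* on chromosome 11, 11 of 459 tested genes passed, *Pctp* included (2.40%). In the rest of the genome 91 of 12007 passed (0.758%), and overall 102 of 12466 (0.818%). A knockout line can carry a stretch of chromosome around the deleted gene from the strain in which it was made, and whether it did so here was not tested. *AA465934*, a non-coding transcript from 83291699 to 83294632, read 2.34, 2.47 and 1.34 FPKM in WT and 15.02, 17.5 and 21.98 FPKM in *Pctp*-/- livers (log2 fold change 2.66 ± 0.17, adjusted p = 2.7e-05). *Psmc3ip*, which encodes a cofactor of meiotic recombination, read 5.49, 10.8 and 8.79 FPKM in WT and 0.659, 0.533 and 0.427 FPKM in *Pctp*-/- livers (log2 fold change -2.56 ± 0.18, adjusted p = 4.9e-05). It overlaps *Mlx*, a partner of the carbohydrate sensor ChREBP, on the opposite strand, and *Mlx* also fell (-0.64, adjusted p = 0.0301). Of the 100-base stretches of *Psmc3ip* transcripts 14.6% are found in another gene, so the 2 values are not fully separate. The RNA helicase gene *Dhx40* was tight within each group, at 9.80, 9.50 and 9.72 FPKM in WT and 5.34, 5.51 and 5.61 FPKM in *Pctp*-/- livers (log2 fold change -0.72 ± 0.08, adjusted p = 0.0018). *Acbd4*, an acyl-CoA binding protein, went the other way, with 8.74, 9.05 and 9.89 FPKM in WT and 20.2, 17.7 and 18.7 FPKM in *Pctp*-/- livers (log2 fold change 0.96 ± 0.10, adjusted p = 0.000785). In each of these genes the 3 knockout livers lay to one side of the 3 WT livers. The chemokine gene *Ccl9* was also higher (18.4, 12.2 and 15.9 in WT and 27.7, 30.5 and 36.2 in *Pctp*-/- livers, log2 fold change 0.99), though its adjusted p became 0.0598 without knockout replicate 2 and 0.0645 without replicate 3. The non-coding gene *C130046K22Rik* stood at 1.15, 1.18 and 0.723 FPKM in WT and was listed at 0 in all 3 knockout livers. It was also at 0 in the knockout livers on chow, so it passed the filter on mean level only through WT livers. *Brip1os* (-0.58) and *Med11* (-0.64) were the other lower genes of the region, and the peroxisomal sarcosine oxidase gene *Pipox* (0.94) the other higher one. These calls and that of *Mlx* were each lost in 4 or 5 of the 6 fits that left out 1 MCD library. The adjusted p was 0.0583 to 0.143 for *Mlx*, 0.0612 to 0.0889 for *Brip1os*, 0.055 to 0.129 for *Med11* and 0.0535 to 0.152 for *Pipox*.

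A gene was tested if its FPKM averaged 0.5 or more across the 12 libraries, which 12466 genes did. At an adjusted p under 0.05, 37 were higher (0.297%) and 65 lower (0.521%) in *Pctp*-/- livers. With quantile normalization the split was 69 higher and 41 lower, and with median-of-ratios scaling 34 and 35. A fit to the 6 MCD libraries alone, with a smaller sample to estimate the spread, called 8 higher and 11 lower. Of the 102 genes called, 93 code for protein and 33 changed by more than 1 on the log2 scale, 11 upward and 22 downward. In each of the 102 the 3 knockout values lay wholly above or wholly below the 3 WT values, as did those of 26.6% of all tested genes. Where such a separation is stated for a called gene, it is therefore shared by all calls and is no further evidence. Most tested genes leaned downward, with 70.3% below 0 and a median log2 fold change of -0.09, and quantile normalization moved this median to -0.004 and median-of-ratios scaling to -0.01. The 50 most abundant genes took 41.7 to 44.4% of all FPKM in the knockout and 39.7 to 41.0% in the WT livers. WT replicate 1 was the highest of the 3 WT livers in 39 of the 65 lower genes, and in 48.0% of all tested genes. With 1 MCD library left out, 26 of the 102 calls held without knockout replicate 2 and 29 without replicate 3. Without WT replicate 2 or 1, 31 and 40 held, and without knockout replicate 1 or WT replicate 3, 67 and 88. In all 6 such fits 22 held. No gene of the 102 changed sign. At the threshold of the filter, *Gm12655*, *Ddr2* and *Tlr4* entered with means of 0.501 FPKM each, and *AI429214*, *Fam84a* and *Slc22a12* stayed out with means just under it. Gene lists are described below by their calls and by their members at an unadjusted p under 0.05. That level was reached by 3.3% of all tested genes upward and 13% downward.

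**Figure D1:**
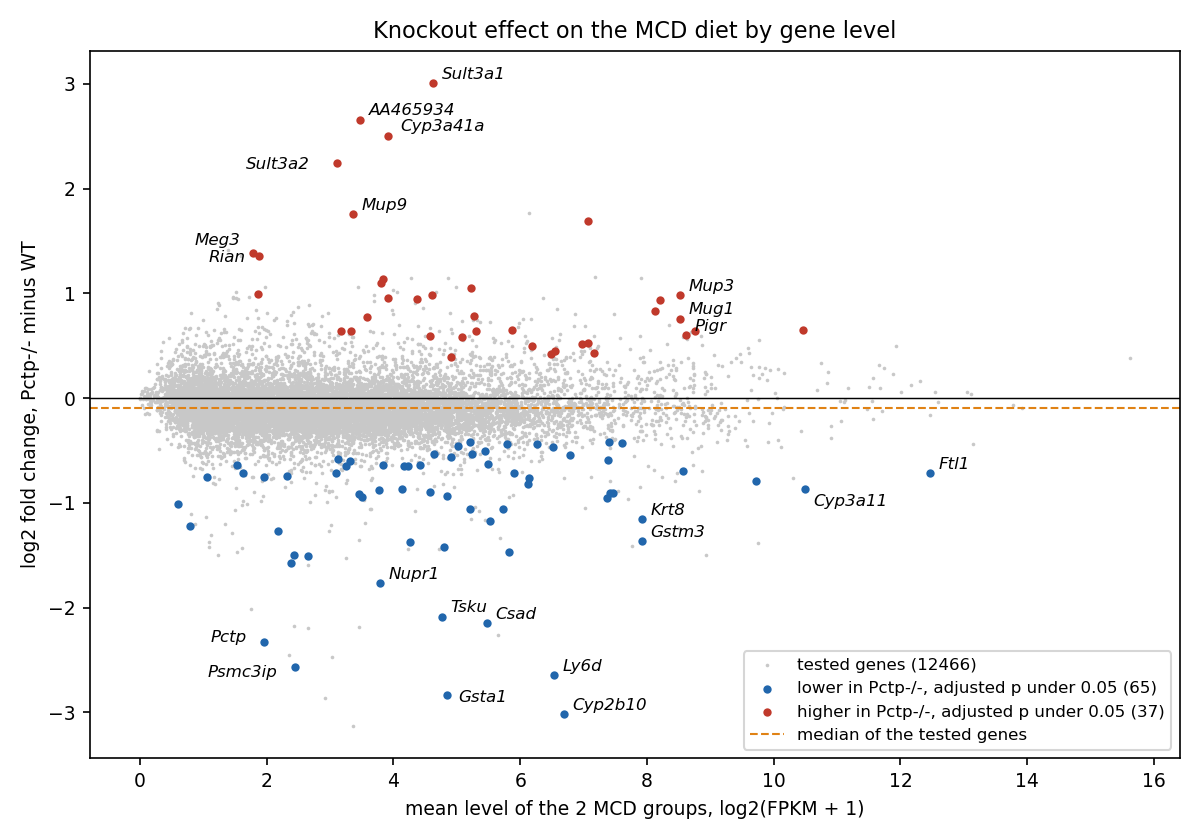
Each point is a gene, with its mean level in the 2 MCD groups across (log2(FPKM + 1)) and its log2 fold change, *Pctp*-/- minus WT, upward. Grey points are the 12466 tested genes, blue the 65 that fell, red the 37 that rose, and the dashed line is the median of all tested genes at -0.09. Among the called genes the largest falls, down to -3.02 in *Cyp2b10*, and the largest rises, up to 3.01 in *Sult3a1*, lie among genes of middle abundance, while *Ftl1* and *Cyp3a11* are abundant genes with falls of less than 1.

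Enzymes of xenobiotic metabolism were numerous among the lower genes. CAR and PXR are nuclear receptors that sense drugs, bile acids and other foreign or endogenous compounds and switch on oxidizing, conjugating and exporting proteins. Of 47 tested members of a list of their target genes, 11 fell and 2 rose, against 0.521% and 0.297% of all tested genes, and the list's median log2 fold change was -0.28 (-0.21 after quantile normalization). At an unadjusted p under 0.05, 18 were lower and 6 higher, against 13% and 3.3% of all tested genes. The list was mixed in direction, with 29 members below 0 and 18 above. The 2 that rose were *Cyp3a41a* and *Meg3*, which are taken up below. The summed level of the list was 9159.8 to 9302 FPKM in WT and 5951 to 6708 FPKM in *Pctp*-/- livers, without overlap. The 13 calls became 7 without WT replicate 2, 7 without knockout replicate 2 and 7 without knockout replicate 3. This list, like all gene lists here, was chosen with earlier results of these data known. Its counts and median therefore describe it and do not test it.

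*Cyp2b10*, the classic target of CAR, read 87.2, 244 and 224 FPKM in WT and 23.96, 16.95 and 19.5 FPKM in *Pctp*-/- livers. The WT livers were unequal, with replicate 1 well below the other two, and the knockout livers were uniformly low, so that the mean was 9.19-fold lower (log2 fold change -3.02 ± 0.43, adjusted p = 0.00738). *Cyp2c55*, another inducible P450, read 6.97, 9.37 and 8.51 FPKM in WT and 3.47, 1.97 and 1.57 FPKM in *Pctp*-/- livers (log2 fold change -1.51 ± 0.18, adjusted p = 0.0027). *Cyp3a11*, the main hepatic CYP3A enzyme of male mice and a PXR target, read 1891, 1813 and 1863 FPKM in WT and 983, 978 and 1093 FPKM in *Pctp*-/- livers. Here the livers within a group were nearly alike, and the knockout mean was 1.82-fold lower (log2 fold change -0.87 ± 0.11, adjusted p = 0.00266). The calls of these 3 P450 genes held with each MCD library left out in turn. *Cyp2c29*, also inducible through CAR, read 239.5, 941 and 1072 FPKM in WT and 230.0, 187 and 249 FPKM in *Pctp*-/- livers, with WT replicate 1 next to the knockout livers, and it did not pass (log2 fold change -1.49, adjusted p = 0.112).

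Several glutathione S-transferases were among the lower genes. The glutathione S-transferases join glutathione to electrophiles. Of 25 tested members of that family 4 fell and 0 rose by limma, against 0.521% and 0.297% of all tested genes. At an unadjusted p under 0.05, 8 were lower and 1 higher, against 13% and 3.3%. *Gstm2* read 255, 217 and 182 FPKM in WT and 117, 103 and 113 FPKM in *Pctp*-/- livers (log2 fold change -0.96 ± 0.13, adjusted p = 0.00502), and its call held without any 1 of the MCD libraries. *Gstm1*, a close relative, read 1164, 1114 and 923 FPKM in WT and 605, 524 and 729 FPKM in *Pctp*-/- livers (log2 fold change -0.79 ± 0.14, adjusted p = 0.023). *Gstm3*, another, read 484, 331 and 244 FPKM in WT and 132, 113 and 149 FPKM in *Pctp*-/- livers (log2 fold change -1.37 ± 0.22, adjusted p = 0.0188). *Gstm1* lost its call without WT replicate 1 or 2 or knockout replicate 1 or 2 (adjusted p 0.0572 to 0.11), and *Gstm3* without WT replicate 2 or knockout replicate 2 or 3 (0.0519 to 0.094). *Gsta1* varied widely among WT livers, reading 108, 34.3 and 11.7 FPKM in WT and 6.26, 2.91 and 3.71 FPKM in *Pctp*-/- livers. Every knockout value was still lower (log2 fold change -2.84 ± 0.58, adjusted p = 0.0467). Its call held only without WT replicate 3 (adjusted p 0.0579 to 0.202 without each of the others), and 80.6% of the 100-base stretches of its transcripts recur in another gene, so its reads may be shared with a relative. *Gstp1*, an abundant GST of male mouse liver, read 730.2, 582 and 463 in WT and 300.4, 283 and 361 in *Pctp*-/- livers and did not pass (-0.89, adjusted p = 0.136).

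Other families of detoxification did not share one direction. Of 67 tested cytochrome P450 genes 3 rose and 3 fell by limma, against 0.297% and 0.521% of all tested genes. At an unadjusted p under 0.05, 16 were higher and 7 lower, against 3.3% and 13%, and the median was 0.14. Beside *Cyp3a41a*, the P450s that rose were *Cyp2c23*, an arachidonic acid epoxygenase (0.45, adjusted p = 0.0412), and *Cyp2c67* (0.58, adjusted p = 0.0492). Their calls were lost in 4 and in all 6 of the fits lacking 1 MCD library (adjusted p 0.113 to 0.173 and 0.0579 to 0.23). Of 16 glucuronosyltransferases 1 fell and 0 rose, with 5 higher and 2 lower at an unadjusted p under 0.05 (median 0.13), and of 13 carboxylesterases 0 passed, with 2 higher and 2 lower. Other single enzymes were among the lower genes. *Ephx1*, microsomal epoxide hydrolase, read 245, 233 and 186 FPKM in WT and 108, 116 and 128 FPKM in *Pctp*-/- livers (log2 fold change -0.90 ± 0.14, adjusted p = 0.0153). *Ugdh*, which makes the UDP-glucuronic acid used in glucuronidation, read 106, 81.96 and 76.3 FPKM in WT and 48.1, 49.03 and 55.9 FPKM in *Pctp*-/- livers (log2 fold change -0.76 ± 0.12, adjusted p = 0.0171). The groups did not overlap in either gene. The call was lost without WT replicate 1 or 2 or knockout replicate 2 for *Ephx1* (adjusted p 0.0554 to 0.0786) and without knockout replicate 2 for *Ugdh* (0.0890). The glucuronosyltransferase *Ugt2b34* (-0.42), the aldehyde dehydrogenase *Aldh1a7* (-0.59) and the aldo-keto reductase *Akr1b7* (-0.76) also fell, with calls that were lost in 5 or 6 of the 6 fits lacking 1 MCD library. *Akr1b7* reached the filter's mean of 0.5 FPKM only through the WT livers on MCD, the group where it was high. *Tsku*, the secreted protein tsukushi, read 68.98, 34.5 and 27.04 FPKM in WT and 9.10, 11.2 and 6.35 FPKM in *Pctp*-/- livers (log2 fold change -2.09 ± 0.31, adjusted p = 0.0113) and lost its call without knockout replicate 3 alone (0.0604). The oxidoreductase gene *Htatip2* read 85.3, 97.7 and 81.3 FPKM in WT and 53.3, 42.8 and 52.1 FPKM in *Pctp*-/- livers (log2 fold change -0.82 ± 0.10, adjusted p = 0.00369) and kept its call in all 6 such fits. The receptors themselves did not pass. CAR (*Nr1i3*) read 37.6, 51.7 and 43.9 FPKM in WT and 47, 58.6 and 68.5 FPKM in *Pctp*-/- livers. Of the 100-base stretches of *Nr1i3* transcripts 53.2% are found in another gene, so its value is uncertain. The PXR gene *Nr1i2* read 24.9, 30.7 and 26.7 FPKM in WT and 21.4, 28.4 and 22.8 FPKM in *Pctp*-/- livers. Both sets of values overlapped between the genotypes.

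**Figure D2:**
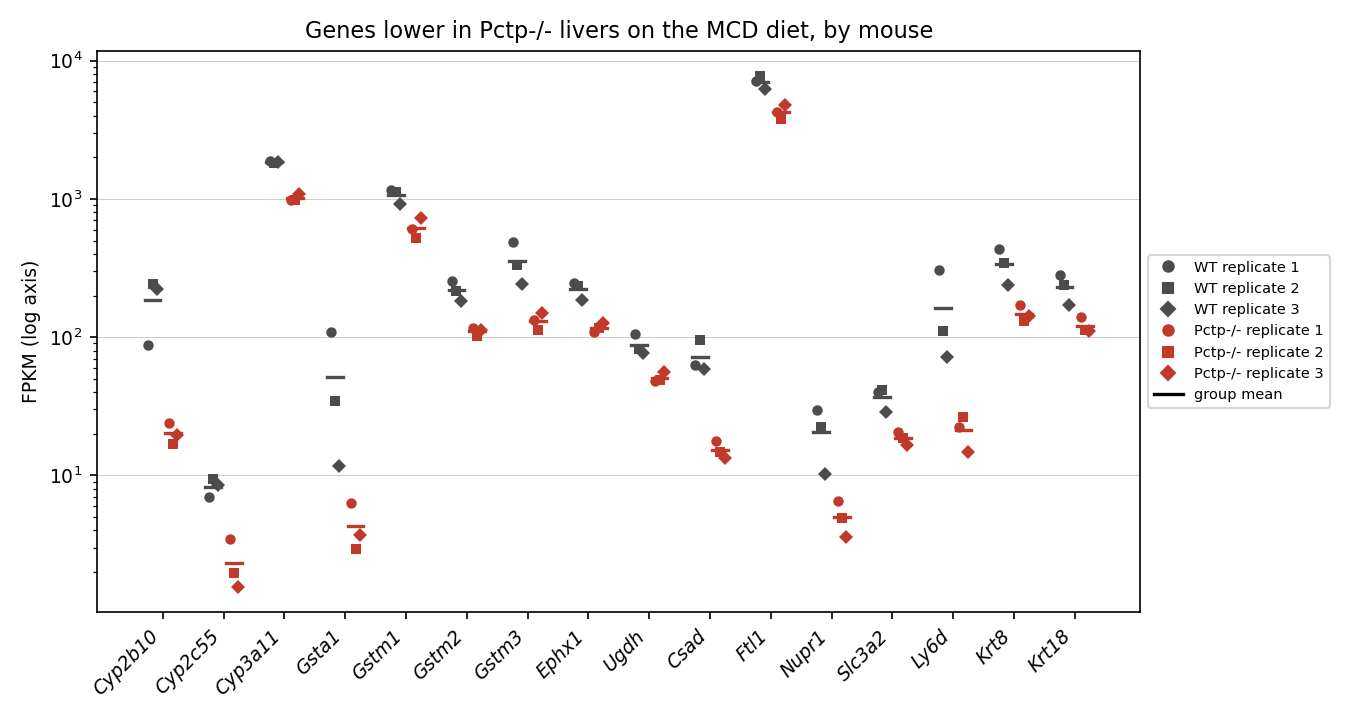
FPKM on a log axis for 16 genes that were lower in *Pctp*-/- livers, with WT mice in grey, *Pctp*-/- mice in red, a symbol for each replicate and a bar at each group mean (n = 3). No knockout point reaches a WT point of the same gene, which holds for all 102 called genes and for 26.6% of all tested genes. The WT spread is wide for *Gsta1* (11.7 to 108 FPKM) and *Ly6d* (71.8 to 305) and narrow for *Cyp3a11* (1813 to 1891).

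NRF2 drives genes that make glutathione, reduce peroxides and handle iron and haem. Of 30 tested genes of the NRF2 and glutathione list, 3 fell (*Ugdh*, *Ephx1* and *Gpx4*) and 0 rose by limma. At an unadjusted p under 0.05, 16 were lower and 0 higher, against 13% and 3.3% of all tested genes. The list's median was -0.29, and -0.18 after median-of-ratios scaling. The 3 calls became 1 without WT replicate 2, 2 without WT replicate 1 or knockout replicate 3, 4 without WT replicate 3 and 0 without knockout replicate 2. *Gpx4*, the peroxidase that reduces lipid hydroperoxides in membranes, read 558, 443 and 408 FPKM in WT and 328, 271 and 265 FPKM in *Pctp*-/- livers (log2 fold change -0.70 ± 0.13, adjusted p = 0.0317). The 3 knockout livers were all lower, and the call was lost without WT replicate 1 or 2 or knockout replicate 2 or 3 (adjusted p 0.0849 to 0.148). Sulfiredoxin, *Srxn1*, read 126, 57.7 and 41 FPKM in WT and 27.03, 23.3 and 27.5 FPKM in *Pctp*-/- livers and missed the threshold (log2 fold change -1.33, adjusted p = 0.0552). *Ftl1*, the ferritin light chain that stores iron, was one of the most abundant transcripts of these livers and read 7114, 7715 and 6268 FPKM in WT and 4265, 3800.2 and 4777 FPKM in *Pctp*-/- livers (log2 fold change -0.72 ± 0.12, adjusted p = 0.0189). Again the knockout livers were all lower. Of its 100-base stretches 44.7% are found in another gene, and the call was lost without WT replicate 1 or 2 or knockout replicate 2 (adjusted p 0.0513 to 0.096). Its pseudogene *Ftl1-ps1* fell as well (-0.90). The regulator gene *Nfe2l2*, encoding NRF2, read 55.2, 45.4 and 39.02 in WT and 44.6, 39.8 and 54.04 in *Pctp*-/- livers, and its targets *Nqo1* (-0.15, adjusted p = 0.775) and *Gclc* (-0.16, adjusted p = 0.629) did not pass.

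The lowest median of the 53 gene lists was that of genes of the ATF4 response, which cells switch on when amino acids run short and which the absence of methionine is known to trigger. All 30 tested members had a log2 fold change below 0, as did 70.3% of all tested genes. Their median was -0.48, which quantile normalization moved to -0.41 and median-of-ratios scaling to -0.37. By limma 3 of them fell, *Slc3a2*, *Nupr1* and *Pck2*, against 0.521% of all tested genes. At an unadjusted p under 0.05, 19 were lower, against 13%. The summed level was 1512 to 2118 FPKM in WT and 1059 to 1181 FPKM in *Pctp*-/- livers. The count of calls was 9 without WT replicate 3, 2 without knockout replicate 1, and 1 without any of the other 4 libraries. As the lists were chosen with earlier results of these data known, the rank of this median is a description.

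*Slc3a2*, the heavy chain of amino acid transporters at the cell surface, read 40.2, 41.4 and 28.9 FPKM in WT and 20.6, 18.5 and 16.6 FPKM in *Pctp*-/- livers (log2 fold change -0.94 ± 0.13, adjusted p = 0.0076). *Nupr1*, a small stress-induced nuclear protein, read 29.5, 22.2 and 10.3 FPKM in WT and 6.47, 4.95 and 3.60 FPKM in *Pctp*-/- livers (log2 fold change -1.76 ± 0.29, adjusted p = 0.0188). *Pck2*, the mitochondrial form of phosphoenolpyruvate carboxykinase, read 2.79, 3.40 and 2.36 FPKM in WT and 1.06, 1.40 and 1.59 FPKM in *Pctp*-/- livers (log2 fold change -0.71 ± 0.13, adjusted p = 0.0243). Knockout livers were below WT livers throughout, and the call of *Slc3a2* held with each MCD library left out. That of *Nupr1* was lost without WT replicate 1 or 2 or knockout replicate 2 or 3 (adjusted p 0.0533 to 0.0927), and that of *Pck2* without each library except WT replicate 3 (0.0604 to 0.116). *Inhbe*, a liver activin subunit that is induced by ATF4 and secreted, fell too, with 80.1, 88.1 and 46.4 FPKM in WT and 31, 34.2 and 32.7 FPKM in *Pctp*-/- livers (log2 fold change -1.06 ± 0.18, adjusted p = 0.021). Its adjusted p was 0.0535 to 0.0908 without each library except WT replicate 3. Several members of the ATF4 list with log2 fold changes below -1 missed the threshold, and their values spread widely within a group. *Ddit4*, an inhibitor of mTORC1, read 59.02, 143 and 45.6 FPKM in WT and 17.3, 25.6 and 6.51 FPKM in *Pctp*-/- livers (log2 fold change -2.26, adjusted p = 0.0577). The stress hormone gene *Fgf21* read 253, 485 and 215 FPKM in WT and 124, 134 and 83.3 FPKM in *Pctp*-/- livers (-1.41, adjusted p = 0.112). The gene of the glutathione-degrading enzyme *Chac1* read 6.35, 14.1 and 5.17 FPKM in WT and 2.31, 2.52 and 1.16 FPKM in *Pctp*-/- livers (-1.59, adjusted p = 0.102). *Atf4* mRNA was close in the groups, at 112, 118 and 108 in WT and 103, 90.9 and 97.4 in *Pctp*-/- livers (-0.22, adjusted p = 0.537), and that of *Ddit3*, which encodes CHOP, overlapped (55.3, 109 and 73.3 in WT and 66.8, 47.3 and 57.2 in *Pctp*-/- livers).

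The promoters of 3 of these lower genes are printed because each holds the letters of the composite site that ATF4 binds with C/EBP proteins. The windows run over the 250 bases before the annotated start in GRCm38.p6 (RefSeq), 5′ to 3′ along the gene, with the match in capitals. They cover chr7:126625471-126625720 on the minus strand for *Nupr1*, chr14:55540016-55540265 on the plus strand for *Pck2* and chr10:127351849-127352098 on the minus strand for *Inhbe*.
Nupr1: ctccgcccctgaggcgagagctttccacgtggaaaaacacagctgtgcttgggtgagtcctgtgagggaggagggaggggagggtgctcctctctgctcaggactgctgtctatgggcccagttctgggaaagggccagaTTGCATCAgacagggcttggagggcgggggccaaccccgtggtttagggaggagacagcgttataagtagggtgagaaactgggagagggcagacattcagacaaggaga
Pck2: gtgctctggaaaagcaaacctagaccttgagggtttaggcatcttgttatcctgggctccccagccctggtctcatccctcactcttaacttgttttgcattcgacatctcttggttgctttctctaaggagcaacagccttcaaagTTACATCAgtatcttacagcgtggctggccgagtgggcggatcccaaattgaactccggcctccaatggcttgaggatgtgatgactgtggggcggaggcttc
Inhbe: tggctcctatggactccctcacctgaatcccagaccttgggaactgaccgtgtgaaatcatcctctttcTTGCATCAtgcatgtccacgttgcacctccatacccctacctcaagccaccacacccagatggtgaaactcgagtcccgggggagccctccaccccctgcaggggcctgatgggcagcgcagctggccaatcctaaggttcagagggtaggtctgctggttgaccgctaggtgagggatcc
The letters searched were TGATGNAA on either strand, over 300 bases from 250 before to 50 after the start. Of the 102 genes, 84 had a promoter in the table. A match was held by 6 of the 56 lower ones (10.7%) and by 2 of the 28 higher ones (7.14%), against 252 of 9282 tested genes with a promoter (2.71%). Other motifs were searched in the same way. The antioxidant response element core TGACNNNGC was held by 6 of the 56 lower ones (10.7%) against 16.8% of tested genes, and the STAT5 site TTCNNNGAA by 3 of 56 (5.36%) against 8.33%. The interferon-stimulated response element core GAAANNGAAA was held by 2 of 56 (3.57%) against 3.68%. A match describes the letters and does not show that a factor was bound, and *Slc3a2* had none in its window.

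Some genes that mark injured or bile duct-like epithelium were lower in the knockout. Of 15 tested members of the ductular list 3 fell and 0 rose by limma, against 0.521% and 0.297% of all tested genes. The median was -0.43 (-0.33 after quantile normalization). Its summed level was 623 to 1441 FPKM in WT and 386 to 460.1 FPKM in *Pctp*-/- livers. The 3 called genes, *Ly6d*, *Krt8* and *Krt18*, made up most of each sum, so the sums say little about the other members. *Ly6d*, a surface protein of epithelial and lymphoid cells, read 305, 109.9 and 71.8 FPKM in WT and 22.2, 26.6 and 14.7 FPKM in *Pctp*-/- livers (log2 fold change -2.65 ± 0.40, adjusted p = 0.0115). *Krt8*, which pairs with *Krt18* as the keratin of hepatocytes and is raised in liver injury, read 433, 343 and 238 FPKM in WT and 170.2, 131 and 142 FPKM in *Pctp*-/- livers (log2 fold change -1.15 ± 0.20, adjusted p = 0.021). *Krt18* read 282, 238 and 171 FPKM in WT and 139, 113 and 110.4 FPKM in *Pctp*-/- livers (log2 fold change -0.90 ± 0.17, adjusted p = 0.0352). All 3 knockout livers were below all 3 WT livers in each of these genes. The defining duct markers were low and did not pass, with *Krt7* under the filter. *Krt19* read 0.799, 0.321 and 0.767 FPKM in WT and 0.574, 0.437 and 0.855 FPKM in *Pctp*-/- livers, *Epcam* read 0.592, 0.695 and 0.489 FPKM in WT and 0.548, 0.337 and 0.691 FPKM in *Pctp*-/- livers, and *Sox9* read 2.20, 1.78 and 2.34 FPKM in WT and 1.85, 1.55 and 1.48 FPKM in *Pctp*-/- livers. Each overlapped between the genotypes. *Tnfrsf12a*, the receptor of the injury cytokine TWEAK, also fell, reading 57.98, 38.98 and 22.8 FPKM in WT and 16.3, 12.6 and 11.5 FPKM in *Pctp*-/- livers (log2 fold change -1.42 ± 0.26, adjusted p = 0.0301). *Ly6d* lost its call without knockout replicate 3 (0.0640), and the keratins and *Tnfrsf12a* without WT replicate 1 or 2 or knockout replicate 2 or 3 (adjusted p 0.0643 to 0.157). The list's 3 calls became 5 without WT replicate 3, 1 without WT replicate 1 or 2 or knockout replicate 2, and 0 without knockout replicate 3.

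Interferon-stimulated genes encode antiviral and antigen-presenting proteins. Of 48 tested members of that list 2 fell and 0 rose, against 0.521% and 0.297% of all tested genes. At an unadjusted p under 0.05, 11 were lower and 1 higher, against 13% and 3.3%. The median was -0.26 (-0.16 after median-of-ratios scaling). *Isg15*, a ubiquitin-like protein, read 52.6, 47.5 and 45.1 FPKM in WT and 24.8, 16.02 and 29.5 FPKM in *Pctp*-/- livers (log2 fold change -1.05 ± 0.19, adjusted p = 0.023). *Ifi27l2a*, a small mitochondrial interferon-induced protein, read 34.7, 21.01 and 24.97 FPKM in WT and 11.6, 8.62 and 8.602 FPKM in *Pctp*-/- livers (log2 fold change -1.38 ± 0.27, adjusted p = 0.0386). Neither group overlapped the other in these genes. The adjusted p of *Isg15* was 0.0701 to 0.0937 without WT replicate 1 or 2 or knockout replicate 2, and that of *Ifi27l2a* was 0.0535 to 0.17 across the 6 fits that left out 1 library. The *Isg15* promoter, chr4:156200819-156201068 on the minus strand over the 250 bases before the start (GRCm38.p6, RefSeq), is shown because it holds 3 overlapping copies of the interferon-stimulated response element core, in capitals.
Isg15: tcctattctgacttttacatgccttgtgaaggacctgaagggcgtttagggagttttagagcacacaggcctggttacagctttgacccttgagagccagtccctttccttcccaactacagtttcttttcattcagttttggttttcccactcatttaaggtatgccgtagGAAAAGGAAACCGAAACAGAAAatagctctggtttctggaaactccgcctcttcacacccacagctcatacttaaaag
The letters searched were GAAANNGAAA on either strand, and such a match lay in the 300-base window of 342 of the 9282 tested genes with a promoter (3.68%), and in 2 of the 56 lower genes (3.57%).

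No marker of the other liver cells below passed by limma, and their counts at an unadjusted p under 0.05 stand beside 13% lower and 3.3% higher among all tested genes. For macrophages and Kupffer cells, 0 of 37 tested markers passed by limma and 6 were lower and 0 higher at an unadjusted p under 0.05, with a median of -0.27. Their summed level was 722 to 1452 FPKM in WT and 846 to 951 FPKM in knockout livers, so that the WT range enclosed the knockout range. The macrophage marker *Cd68* read 43.1, 16.5 and 17.9 in WT and 21.4, 18.1 and 18.2 in *Pctp*-/- livers, highest in WT replicate 1. The Kupffer cell marker *Clec4f* read 49.5, 55.3 and 96.2 in WT and 41.9, 44.5 and 44.2 in *Pctp*-/- livers, highest in WT replicate 3. Stellate cell and matrix genes had 0 of 34 called and 4 lower and 0 higher at an unadjusted p under 0.05, with sums of 528 to 749 FPKM in WT and 556 to 591 in knockout livers. Endothelial genes had 0 of 21 called and 1 lower, with sums of 161 to 196 and 145 to 164 FPKM. Lymphocyte and neutrophil genes had 0 of 10 called and 2 lower, with sums of 46.3 to 49.1 and 29.4 to 52.8 FPKM, so that the genotypes overlapped in all 3 lists. No marker of these lists, nor of the macrophage or ductular list, was at 0 in all 6 libraries. Among the 28 hepatocyte identity genes 0 passed, 5 were higher and 1 lower at an unadjusted p under 0.05, and the sums were 71190.0 to 80581 FPKM in WT and 86817 to 93870.0 FPKM in knockout livers, without overlap. *Alb*, which did not pass by limma (adjusted p = 0.142), made up most of each sum, at 41402 to 46335 FPKM in WT and 54602 to 61588 FPKM in knockout livers. The mean log2 level of the 28 genes, relative to the WT mean, was -0.04 to 0.08 in WT and 0.11 to 0.22 in knockout livers. In whole liver, fewer cells of a type and less RNA per cell cannot be told apart, and the part of these cells in the results was not tested. Among chemokines, *Ccl2* read 17.3, 7.49 and 6.62 in WT and 4.22, 2.51 and 4.19 in *Pctp*-/- livers (-1.21, adjusted p = 0.0728). *Ccl6* read 18.8, 8.93 and 17.1 in WT and 4.47, 5.88 and 4.68 in *Pctp*-/- livers (-1.35, adjusted p = 0.0531). Of 23 tested chemokines and cytokines only *Ccl9*, near *Pctp*, passed, and it rose.

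Among sulfur amino acid and triglyceride genes, *Csad* and *Gpat3* passed. *Csad*, which decarboxylates cysteine sulfinic acid on the way to taurine, read 62.3, 94.9 and 59.2 FPKM in WT and 17.8, 14.8 and 13.3 FPKM in *Pctp*-/- livers. The knockout livers were all far below the lowest WT liver (log2 fold change -2.15 ± 0.18, adjusted p = 0.00024), with a mean 4.72-fold lower, and the call held in every fit tried. *Csad* was the only one of 40 tested genes of methionine, one-carbon and sulfur metabolism to pass, with 11 others higher and 4 lower at an unadjusted p under 0.05. Among all tested genes 3.3% were higher and 13% lower at that level. Betaine-homocysteine methyltransferase, *Bhmt*, which remakes methionine from homocysteine, read 620.0, 736 and 764 FPKM in WT and 968, 1058 and 1087 FPKM in *Pctp*-/- livers (0.56, adjusted p = 0.0849). *Fam25c*, a small protein of unclear function, read 72.9, 88.6 and 83.7 FPKM in WT and 33.8, 22.9 and 30.6 FPKM in *Pctp*-/- livers (log2 fold change -1.47 ± 0.20, adjusted p = 0.00502), and it too passed in every fit. *Gpat3*, an acyltransferase that starts triglyceride synthesis, read 19.6, 24.2 and 19.2 FPKM in WT and 13.1, 13.8 and 12 FPKM in *Pctp*-/- livers (log2 fold change -0.65 ± 0.13, adjusted p = 0.0467). It was the only call among 31 tested genes of triglyceride synthesis, lipid droplets and lipolysis, with 7 lower and 1 higher at an unadjusted p under 0.05. Its adjusted p was 0.0849 to 0.18 without each library except WT replicate 3. The lipid droplet gene *Cidec* read 62.02, 33.9 and 18.9 FPKM in WT and 13.1, 15.9 and 8.26 FPKM in *Pctp*-/- livers and did not pass (-1.44, adjusted p = 0.0895). *Apoa4*, an apolipoprotein that rises in fatty liver, read 2163, 965 and 693 FPKM in WT and 310.3, 498 and 520.1 FPKM in *Pctp*-/- livers and did not pass either (-1.39, adjusted p = 0.0811). Of the 100-base stretches of *Apoa4* transcripts 51% are found in another gene.

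The genes that rose were led by transcripts that in mice are typically more abundant in female than in male liver. Of 37 tested genes of the female-biased list 5 rose and 0 fell, against 0.297% and 0.521% of all tested genes. At an unadjusted p under 0.05, 12 were higher and 0 lower, against 3.3% and 13%. The median was 0.35, and 0.47 after quantile normalization. The list's summed level was 1407 to 1603 FPKM in WT and 1958 to 2352 FPKM in *Pctp*-/- livers, without overlap. The 5 calls became 3 without knockout replicate 2 or 3. This list too was chosen with earlier results of these data known.

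*Cyp3a41a*, a P450 that is nearly absent from male liver, read 4.97, 2.13 and 3.56 FPKM in WT and 20.7, 33.4 and 19.9 FPKM in *Pctp*-/- livers (log2 fold change 2.51 ± 0.22, adjusted p = 0.000257). The value is shared to an unknown degree with *Cyp3a41b*, since 90.8% of its 100-base stretches recur in another gene. The sulfotransferases that act on steroids, bile acids and amines included 3 that rose and 0 that fell among 11 tested members of the family. Among all tested genes 0.297% rose and 0.521% fell. *Sult3a1* read 0.702, 7.98 and 8.13 FPKM in WT and 35.5, 34.1 and 55.9 FPKM in *Pctp*-/- livers (log2 fold change 3.01 ± 0.49, adjusted p = 0.0171). *Sult3a2* read 0.119, 4.77 and 2.62 FPKM in WT and 11.04, 10.8 and 16.5 FPKM in *Pctp*-/- livers (log2 fold change 2.25 ± 0.43, adjusted p = 0.0329). *Sult2a6* read 18.8, 22.5 and 29.7 FPKM in WT and 47.5, 46.8 and 53.4 FPKM in *Pctp*-/- livers (log2 fold change 1.05 ± 0.14, adjusted p = 0.00419). In *Sult3a1* and *Sult3a2* WT replicate 1 stood far below the other WT livers, and the knockout livers were higher than all of them. The calls of *Cyp3a41a* and *Sult2a6* held with each MCD library left out. That of *Sult3a1* was lost without knockout replicate 2 or 3 (adjusted p 0.0675 to 0.0861) and that of *Sult3a2* without any 1 knockout replicate (0.0595 to 0.152). On chow, *Cyp3a41a*, *Sult3a2* and *Sult2a6* were listed at 0 in all 6 libraries. Those libraries added no spread to the pooled estimate, so the standard errors and p-values of these genes can understate the spread between MCD mice. The same limit applies to other called genes that were near 0 on chow. Among them were *Ly6d* (0 to 0.744 FPKM on chow), *Nupr1* (0.0623 to 0.367), *Akr1b7* (0 to 0.27), *Meg3* (0.116 to 0.498) and *Rian* (0.0922 to 0.231).

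Of 17 tested genes of the growth hormone, STAT5 and BCL6 axis, *Ghr* alone passed by limma, with 4 higher and 0 lower at an unadjusted p under 0.05. Among all tested genes 3.3% were higher and 13% lower at that level. *Ghr*, the growth hormone receptor, read 77.5, 74.03 and 74.03 FPKM in WT and 102, 96.1 and 106 FPKM in *Pctp*-/- livers (log2 fold change 0.42 ± 0.08, adjusted p = 0.0334). All knockout livers were higher, and the adjusted p was 0.06 to 0.152 in the 6 fits that left out 1 library. *Igf1*, the main secreted product of growth hormone signaling, read 43.5, 40.2 and 49.3 FPKM in WT and 62.8, 73.01 and 59.5 FPKM in *Pctp*-/- livers (0.54, adjusted p = 0.0792). Its binding partner *Igfals* read 23.7, 31.4 and 35.9 FPKM in WT and 49.3, 46.2 and 55.8 FPKM in *Pctp*-/- livers (0.73, adjusted p = 0.104). The major urinary proteins are pheromone carriers secreted by liver. Of 23 tested members 2 rose and 0 fell, against 0.297% and 0.521% of all tested genes. At an unadjusted p under 0.05, 6 were higher and 0 lower, against 3.3% and 13%, and the median was 0.19. *Mup3* read 191, 264 and 286 FPKM in WT and 477, 469 and 507 FPKM in *Pctp*-/- livers (log2 fold change 0.99 ± 0.15, adjusted p = 0.0136). *Mup9* read 3.18, 3.40 and 3.93 FPKM in WT and 9.66, 12.7 and 22.9 FPKM in *Pctp*-/- livers (log2 fold change 1.76 ± 0.33, adjusted p = 0.0317). The genes of this family are nearly alike in sequence (71.9% of the stretches of *Mup9* recur in another gene), so single members are uncertain. The 2 calls were 0 without knockout replicate 2 or 3, 1 without WT replicate 1 or 2 and 3 without knockout replicate 1. Of 28 tested male-biased genes 1 rose, *Mup3*, with a median of 0.08. *Hsd11b1*, which regenerates active glucocorticoid, also rose (292, 344 and 368 in WT and 466, 492 and 616 in *Pctp*-/- livers, log2 fold change 0.64, adjusted p = 0.0349). It lost its call without WT replicate 1 or 2 or knockout replicate 2 or 3 (0.106 to 0.145).

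**Figure D3:**
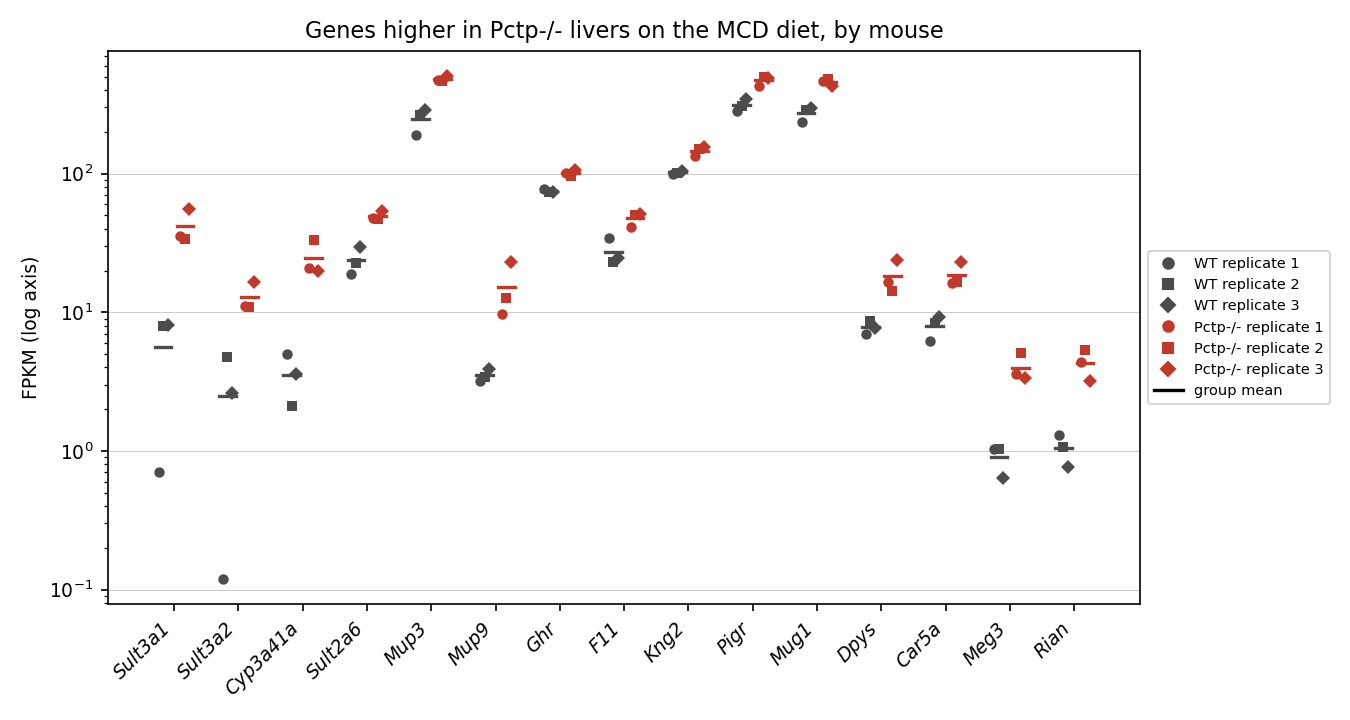
FPKM on a log axis for 15 genes that were higher in *Pctp*-/- livers, with WT mice in grey, *Pctp*-/- mice in red, a symbol for each replicate and a bar at each group mean (n = 3). Every knockout point lies above every WT point of its gene, and the groups are likewise apart in all 102 called genes. WT replicate 1 is far below the other WT livers for *Sult3a1* (0.702 FPKM) and *Sult3a2* (0.119 FPKM).

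Products of mature hepatocytes rose by smaller steps. Of 44 tested genes of complement and coagulation 2 rose and 0 fell, against 0.297% and 0.521% of all tested genes. At an unadjusted p under 0.05, 12 were higher and 0 lower, against 3.3% and 13%, and the median was 0.19. The 2 calls became 1 without WT replicate 1 or 3 and 0 without WT replicate 2 or knockout replicate 2 or 3. Coagulation factor XI, *F11*, read 34.3, 23.2 and 24.8 FPKM in WT and 41.1, 50.5 and 50.9 FPKM in *Pctp*-/- livers (log2 fold change 0.78 ± 0.14, adjusted p = 0.0286). The kininogen gene *Kng2* read 100.1, 101 and 105 FPKM in WT and 134, 151 and 155 FPKM in *Pctp*-/- livers (log2 fold change 0.51 ± 0.10, adjusted p = 0.0334). *F11* lost its call without WT replicate 2 or 3 or knockout replicate 2 or 3 (adjusted p 0.0592 to 0.137), and *Kng2* without WT replicate 1 or 2 or knockout replicate 2 or 3 (0.0956 to 0.152). *Mug1*, a plasma protease inhibitor of rodents, read 235, 286 and 296 FPKM in WT and 468, 481 and 428 FPKM in *Pctp*-/- livers (log2 fold change 0.76 ± 0.11, adjusted p = 0.0079) and lost its call only without knockout replicate 2 (0.0561). *Pigr*, which carries IgA into bile, read 284, 306 and 346 FPKM in WT and 432, 499.9 and 491 FPKM in *Pctp*-/- livers (log2 fold change 0.60 ± 0.11, adjusted p = 0.023). Its adjusted p was 0.0764 to 0.117 without WT replicate 1 or 2 or knockout replicate 2 or 3. The groups were apart in all 4 of these genes. The vitamin E-binding protein afamin, *Afm* (0.53), and the hyaluronan-binding chain *Itih1* (0.43) rose too, with adjusted p of 0.12 to 0.159 and 0.0706 to 0.162 in the 4 and 5 of 6 fits with 1 library left out that lost the call.

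Enzymes of nitrogen and peroxisomal metabolism were among the higher genes. Mitochondrial carbonic anhydrase, *Car5a*, which supplies bicarbonate for the urea cycle, read 6.18, 8.44 and 9.26 FPKM in WT and 16.3, 16.6 and 23.1 FPKM in *Pctp*-/- livers (log2 fold change 1.13 ± 0.15, adjusted p = 0.00419). *Dpys*, a step of pyrimidine breakdown, read 7.02, 8.64 and 7.69 FPKM in WT and 16.4, 14.3 and 23.9 FPKM in *Pctp*-/- livers (log2 fold change 1.10 ± 0.15, adjusted p = 0.00485). The lowest knockout liver stood well above the highest WT liver in both, and both calls held with each MCD library left out. Urate oxidase, *Uox* (0.83), the glycolate oxidase gene *Hao1* (0.50) and *Prodh2*, which degrades hydroxyproline (0.64), rose as well. Their calls were lost in 4, 5 and 6 of the 6 fits with 1 library left out (adjusted p 0.0996 to 0.139, 0.0879 to 0.202 and 0.0572 to 0.18). Of 46 tested genes of the urea cycle and amino acid breakdown only *Prodh2* passed (median 0.20). At an unadjusted p under 0.05, 16 were higher and 3 lower, against 3.3% and 13% of all tested genes. Muscle-type carbonic anhydrase *Car3*, one of the most abundant male liver transcripts, rose by 0.65 (adjusted p = 0.0193, and 0.0554 to 0.0929 without WT replicate 1 or 2 or knockout replicate 2 or 3).

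The imprinted non-coding RNAs *Meg3* and *Rian*, which come from the same maternally expressed domain of chromosome 12, rose together from a low level. *Meg3* read 1.04, 1.03 and 0.643 FPKM in WT and 3.57, 5.06 and 3.34 FPKM in *Pctp*-/- livers (log2 fold change 1.38 ± 0.15, adjusted p = 0.00168). *Rian* read 1.30, 1.07 and 0.767 FPKM in WT and 4.36, 5.35 and 3.17 FPKM in *Pctp*-/- livers (log2 fold change 1.36 ± 0.15, adjusted p = 0.00168). Knockout livers were all above WT livers, both calls held with each MCD library left out, and they were the only 2 of 13 tested imprinted genes to pass. *Rian* reached the filter's mean of 0.5 FPKM only through the knockout livers on MCD, the group where it was high. The fits that left out a library kept the same tested genes, so they do not check this. Both overlap other annotated genes on their strand, so that reads of neighbours in the domain may be included.

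Genes regulated by PPARs, the receptors of fatty acids with which the study is concerned, changed at rates near those of all tested genes in this comparison. The study itself, with a Wald test, reported that many of the genes altered by the knockout on each diet were known PPAR-regulated genes. The test and the gene list used here differ from the study's, so the counts below do not check that report. Of 54 tested targets the single call was *Pctp*, which the list itself contains, with 3 genes higher and 6 lower at an unadjusted p under 0.05, against 3.3% and 13% of all tested genes. Their summed level was 7643, 7879 and 9431 FPKM in WT replicates 1 to 3 and 7858, 11001 and 7845 FPKM in knockout replicates 1 to 3, so that knockout replicate 2 stood apart from the other knockout livers. Quantile normalization moved the median from -0.06 to -0.01 and median-of-ratios scaling turned it to 0.03. *Ppara* read 27.8, 26.05 and 24.3 FPKM in WT and 29.1, 41.4 and 32.8 FPKM in *Pctp*-/- livers (0.38, adjusted p = 0.338). *Pparg* read 4.44, 3.85 and 2.49 FPKM in WT and 2.32, 1.89 and 2.08 FPKM in *Pctp*-/- livers (-0.55, adjusted p = 0.17). *Ppard*, which encodes PPARδ, read 1.96, 1.24 and 1.24 in WT and 1.62, 1.26 and 0.876 in *Pctp*-/- livers, and the genotypes overlapped. The omega-hydroxylase *Cyp4a14*, a sensitive PPARα target, read 220.4, 360.4 and 384 FPKM in WT and 334, 619.6 and 305 FPKM in *Pctp*-/- livers, and knockout replicate 2 alone exceeded the WT range. Of 44 tested genes of mitochondrial and peroxisomal fatty acid oxidation 0 passed by limma and 2 were higher and 0 lower at an unadjusted p under 0.05. Their sum was 6081, 7244 and 6110 FPKM in knockout replicates 1 to 3, again highest in replicate 2. *Cpt1a*, the rate-limiting enzyme of fatty acid entry into mitochondria, read 99.8, 85.4 and 81.9 in WT and 71.2, 105 and 69.8 in *Pctp*-/- livers and overlapped between the groups. With 3 mice a group, a change of the size seen in *Ppara* was not detectable against this spread.

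Lists of general cell machinery differed in their medians, beside -0.09 over all tested genes. Their counts at an unadjusted p under 0.05 stand beside 13% lower and 3.3% higher among all tested genes. Of 47 tested proteasome subunits 1 fell, *Psmd8* (156, 124 and 109 in WT and 91.1, 83.8 and 89.1 in *Pctp*-/- livers, log2 fold change -0.54, adjusted p = 0.0471). There were 18 lower and 0 higher at an unadjusted p under 0.05, with a median of -0.21 (-0.10 by median-of-ratios scaling). Of 83 tested cytosolic ribosomal protein genes 0 passed by limma and 19 were lower and 0 higher at an unadjusted p under 0.05 (median -0.18, and -0.07 by that scaling). Cholesterol synthesis and sterol genes gave 0 calls among 39 tested, with 13 lower and 1 higher at an unadjusted p under 0.05 (median -0.18). Cell cycle genes and p53 targets gave 0 calls among 29, with 10 lower and 0 higher (median -0.33), the licensing factor *Mcm2* reading 4.81, 3.17 and 2.17 in WT and 1.59, 1.70 and 1.27 in *Pctp*-/- livers (-0.76, adjusted p = 0.0962). Chaperones of the unfolded protein response stayed near 0, with 0 calls among 30, 3 lower and 0 higher at an unadjusted p under 0.05, and a median of 0.00 (0.11 by median-of-ratios scaling). The call of *Psmd8* was lost without each library except WT replicate 3 (adjusted p 0.08 to 0.202).

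**Figure D4:**
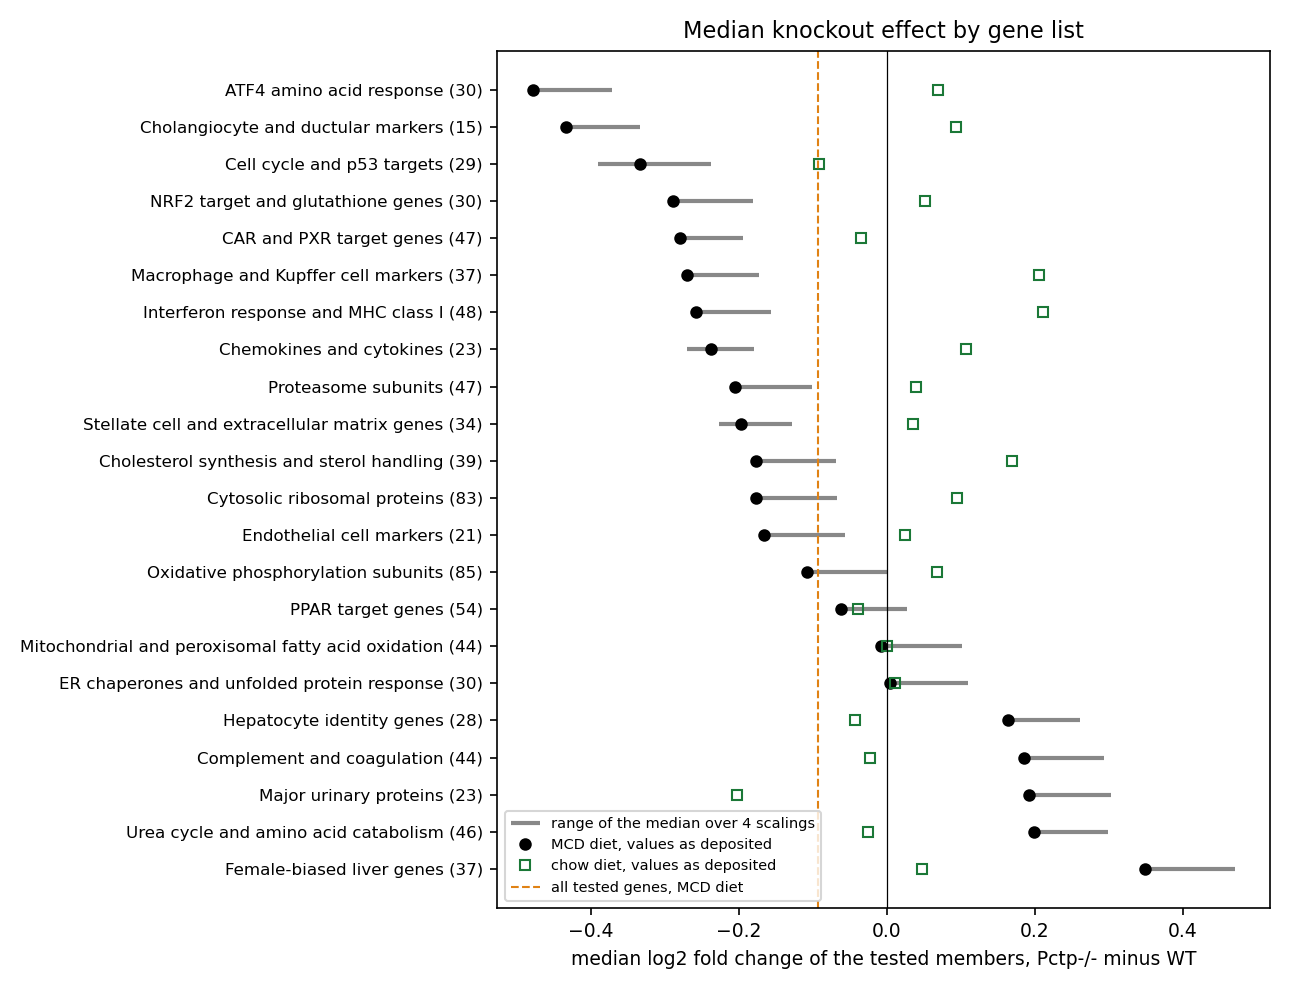
Median log2 fold change, *Pctp*-/- minus WT, of the tested members of 22 gene lists, with the number of tested members in brackets. Black circles are the MCD diet with values as deposited, grey bars the range of that median over 4 scalings, green squares chow, and the dashed line all tested genes on MCD (-0.09). The ATF4 list lies lowest at -0.48 and the female-biased list highest at 0.35, and the bars of the PPAR target, fatty acid oxidation and oxidative phosphorylation lists cross 0.

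The knockout effect on MCD was set beside that on chow, where 17 of 12466 genes passed (0.136%). The 2 comparisons share no library. Library quality also differed by diet, with 77.59 to 79.41% of reads uniquely mapped on chow and 85.66 to 87.55% on MCD. Bases with a quality of 30 or more made up 86.29 to 87.1% on chow and 93.47 to 94.58% on MCD. In comparisons between the diets, diet and library quality therefore cannot be told apart. Of the 102 genes called on MCD, 6 also passed on chow, and all 6 are neighbours of *Pctp* described above (*AA465934*, *Psmc3ip*, *Dhx40*, *Acbd4*, *Ccl9* and *C130046K22Rik*). On chow the log2 fold change of *AA465934* was 2.82, and the MCD effect minus the chow effect was -0.16 (adjusted p = 0.795). That of *Dhx40* was -0.98 on chow, and the difference was 0.26 (adjusted p = 0.318). Of the 102 genes, 16 had an unadjusted p under 0.05 on chow, the 6 that passed there among them. The share of all tested genes at that level on chow is not given here, so the 16 are a description only. Log2 fold changes on chow were 0.10 for *Cyp2b10*, 0.01 for *Gstm2*, -0.17 for *Cyp3a11*, 0.08 for *Slc3a2* and 0.36 for *Krt8*. They were 0.36 for *Gm49342* (-0.54 on MCD), 0.37 for *Ndufa4l2* (-0.64) and -0.32 for *Cyp2c67* (0.58), opposite in sign on the 2 diets, with adjusted p on chow of 0.218, 0.473 and 0.572. *Inhbe* lay farther from 0, at -0.85 on chow (adjusted p = 0.153) and -1.06 on MCD, and so did the pseudogene *Gm4875*, at -1.24 (adjusted p = 0.0684) and -1.22, which was named after its values were seen. *Pctp* itself was scarcer on chow, at 2.25, 1.21 and 2.65 FPKM in WT and 0.566, 0.364 and 0.330 FPKM in *Pctp*-/- livers, and its fold change there did not pass (-1.07, adjusted p = 0.15). In 42 of the 102 genes the sign was the same on both diets, and this count too is given without the share over all tested genes.

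The difference between the knockout effects on the 2 diets was tested in the same fit, and 12 genes passed (0.0963% of those tested). Of the 102 genes 9 were among them, and 95 reached an unadjusted p under 0.05, as did 15.1% of all tested genes. The choice of genes called on MCD favours such a difference. *Csad* differed by -2.08 ± 0.26 (adjusted p = 0.0144) and *Cyp3a41a* by 2.51 ± 0.31 (adjusted p = 0.0144). *Meg3* (1.51), *Rian* (1.43), *Mug1* (0.95), *Cyp2c55* (-1.61), *Fam25c* (-1.75), *Htatip2* (-0.96) and *Gm49342* (-0.90) were the others. *Cyp3a41a* was listed at 0 in every chow library, so its difference restates its effect on MCD. *Meg3* and *Rian* were near 0 on chow, at 0.116 to 0.498 and 0.0922 to 0.231 FPKM. At such levels log2(FPKM + 1) leaves little room for a knockout effect on chow to be seen. For *Cyp2b10*, the largest fall on MCD, the difference of -3.12 had an adjusted p of 0.0694. The remaining 3 of the 12, *Zbtb16*, *Bcl6* and *Ddc*, passed on chow and not on MCD. There *Bcl6*, a repressor that counteracts STAT5 in liver, read 4.54, 5.90 and 3.49 FPKM in WT and 3.06, 4.43 and 3.21 FPKM in *Pctp*-/- livers. *Zbtb16* read 2.81, 3.28 and 4.47 FPKM in WT and 3.95, 3.59 and 3.17 FPKM in *Pctp*-/- livers on MCD, and *Ddc* read 33.8, 31.6 and 28.9 FPKM in WT and 30.2, 23.7 and 20.8 FPKM in *Pctp*-/- livers.

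**Figure D5:**
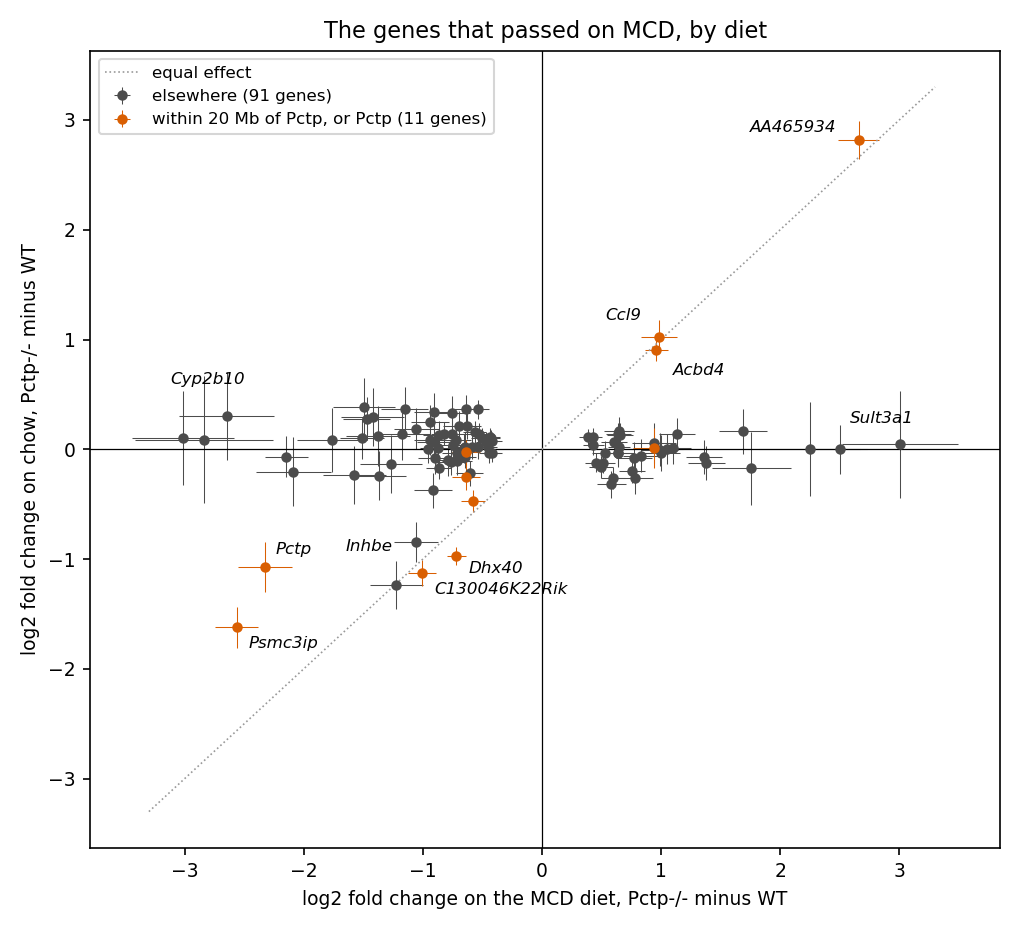
Log2 fold change, *Pctp*-/- minus WT, of the 102 genes that passed on MCD, with the MCD diet across and chow upward, and standard errors from limma as bars. Orange marks the 11 genes within 20 Mb of *Pctp* and grey the other 91, and the dotted line is an equal effect on both diets. Most grey genes lie along the horizontal axis, with *Inhbe* and *Gm4875* farthest from it, while *AA465934*, *Acbd4*, *Ccl9* and *C130046K22Rik* lie near the dotted line.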

How the data were processed

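RNA was isolated from liver by the miRNeasy method and sequenced at Novogene, and the authors deposited the resulting expression values of each gene as FPKM. Per the labels the genome build was mm10, and the aligner, the counting tool and the annotation are not given in the sources used here. Whether counting used strand is not stated, so overlapping genes cannot be fully separated. FPKM were not rescaled and no counts were recovered, so the Wald test of the study's methods was not run. The deposited table of read totals and mapping measures, read totals in whole reads and other columns in percent, served to give the depth.

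Of 35275 gene identifiers, 34490 were matched to symbols and positions in GENCODE (GRCm38), and 12466 with a mean of 0.5 FPKM or more were tested. Values of log2(FPKM + 1) of all 12 libraries entered a linear model in limma (version 3.58.1, R 4.3.3) that had a mean for each of the 4 groups. Variances were moderated along a trend with the mean level, and p-values were adjusted over all tested genes by Benjamini and Hochberg's method. The contrasts were knockout minus WT on MCD, on chow, and the difference of the 2. The script was tested on simulated data. The members and gene lists were chosen with earlier results of these data known.

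Genes named were *Pctp*, the 15 largest rises and falls among called genes whose groups did not overlap, called members of the lists with up to 3 further members each by unadjusted p, called genes within 20 Mb of *Pctp*, and genes called in the difference. Receptor, regulator and cell marker genes given for reference (*Nr1i2*, *Nfe2l2*, *Atf4*, *Ddit3*, *Ppard*, *Krt19* and the like), *Chac1*, *Nqo1*, *Gclc*, *Cpt1a*, *Cyp4a14*, *Ftl1-ps1*, *Afm*, *Itih1*, *Uox*, *Hao1* and *Car3* were named after their values were seen. Same-numbered libraries of the 2 genotypes did not deviate together, with correlations of 0.14, -0.10 and 0.12, so no pairing was used. Pairs of libraries within an MCD group held the same value in 9 to 19 of the tested genes, so none of these libraries was a copy of another. Each p-value rests on a spread pooled over the mice of all 4 groups, chow included. Alternatives covered the pseudocount, filter, scaling, limma options, libraries in the fit, a replicate block and leaving out each library. Promoters are those of RefSeq. A small number of results is not reported here.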

Additional observations from a re-analysis of the deposited data

Results flagged for a closer look

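In 12 genes the knockout effect on MCD differed from that on chow by limma's test of the difference itself (adjusted p under 0.05). The effect on MCD was the more negative for *Csad* (-2.08 on the log2 scale, adjusted p = 0.0144), *Bcl6* (-2.16, 0.0399), *Fam25c* (-1.75, 0.0488), *Cyp2c55* (-1.61, 0.0488), *Ddc* (-1.37, 0.0488), *Htatip2* (-0.96, 0.0426) and *Gm49342* (-0.90, 0.0333). It was the more positive for *Cyp3a41a* (2.51, 0.0144), *Zbtb16* (2.14, 0.0144), *Meg3* (1.51, 0.0379), *Rian* (1.43, 0.0399) and *Mug1* (0.95, 0.0488). *Cyp3a41a* was listed at 0 in every chow library, so its difference restates its effect on MCD. *Meg3* and *Rian* were near 0 on chow, where an effect of the knockout could hardly be seen. *Bcl6*, *Zbtb16* and *Ddc* owe the difference to chow, where their log2 fold changes were 1.87, -2.11 and 1.03, against -0.30, 0.03 and -0.34 on MCD. *Gm49342* shares 95.1% of its 100-base stretches with another gene, so its value is uncertain. The groups held 3 libraries each, so no library was tested for standing apart from its group.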

How the results depend on the processing

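*Pctp* passed under every alternative in which it was tested, at -2.55 to -2.08 with 1 library left out, and it fell under the filter at a mean of 5 FPKM. The number of genes changed on MCD, 102 as reported, ran from 27 (without knockout replicate 2) to 173 (without WT replicate 3) with 1 of the 12 libraries left out, with 10 to 41 higher and 17 to 133 lower. It was 19 with only the MCD libraries in the fit, 8 higher and 11 lower, and 33 with a minimum absolute log2 fold change of 1. Quantile normalization gave 69 higher and 41 lower, and median-of-ratios scaling 35 lower. Called members of the gene lists, 47 as reported, numbered 7 with only the MCD libraries, 23 with no filter on low values and 14 to 67 with 1 library left out. The overall median of the log2 fold changes moved to -0.0040 under quantile normalization, -0.0068 under median-of-ratios scaling and -0.028 with no filter, and lay between -0.117 and -0.068 with 1 library left out. Genes whose knockout effect differed between the diets, 12 as reported, numbered 6 under median-of-ratios scaling, 7 with no mean-variance trend, 3 and 4 with pseudocounts of 0.1 and 0.5, and 0 (without knockout replicate 2 on MCD) to 60 (without WT replicate 3 on MCD) with 1 library left out. The cause of these shifts was not tested, beyond the smaller number of samples in the fits that leave libraries out.

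With the replicate number as a block, 115 genes changed on MCD and 59 differed between the diets, but the same numbers were not shown to pair mice, and the higher and lower counts and the median otherwise moved by less than 1.5 times. No called gene changed sign with 1 library left out. With median-of-ratios scaling the medians of the PPAR target, fatty acid oxidation and pericentral lists turned from -0.06, -0.01 and -0.03 to 0.03, 0.10 and 0.07. With 3 mice a group and values given only as FPKM, small changes of scarce genes were not detectable.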
